A study of Homo sapiens with 6 samples.

Results

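CYP24A1, the vitamin D receptor gene VDR, its partner receptors RXRA and RXRB, and the activating enzymes CYP27B1 and CYP2R1 were followed in ARID1A knockout breast cancer cells. These 6 genes were chosen by symbol, out of 58174 gene IDs, and the transcript counts of each gene were summed. They were selected with the differences between the columns already known, so their levels and folds are a description and carry no test. The cells are MDA-MB-231, an established human triple-negative breast cancer line grown from a metastatic adenocarcinoma. ARID1A belongs to BAF, a complex that moves nucleosomes, and binds DNA. Per the labels, 6 samples of total RNA fall into a control group (NC, genotype control) and knockout groups KO1 and KO2 (genotype ARID1A knockout), with 2 samples in each of the 3 groups. How the knockouts were made, whether each is 1 clone, and whether any treatment or vitamin D was given are not given in the sources used here.

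Vitamin D made in the skin or eaten is first hydroxylated at carbon 25, mainly by CYP2R1 in the liver, and then at carbon 1 by CYP27B1, classically in the kidney, to give the hormone calcitriol. Calcitriol binds VDR, which pairs with a retinoid X receptor (RXRA, RXRB or RXRG) on DNA. CYP24A1, a mitochondrial cytochrome P450, hydroxylates calcitriol and its precursor towards breakdown. Its gene is among the most strongly vitamin D induced genes known.

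The deposited table holds 1 column per group, with no replicate numbers, and the spread between cultures is therefore unknown. The bracketed 95% intervals cover counting error only. Total estimated counts per column ranged from 25801499 to 26798753, and the number of genes above 0 from 23572 to 24699. Mitochondrially encoded genes made up 12.8%, 20.5% and 16.9% of the NC, KO1 and KO2 counts. ARID1A itself was at 77.3 CPM (counts put on one library size with TMM factors) in NC, 45.7 CPM in KO1 and 83.9 CPM in KO2. Its RNA was thus 1.69-fold lower (1.57 to 1.82) in KO1 and 1.09-fold higher (1.02 to 1.15) in KO2. With the edit not given, RNA summed over the gene cannot check the knockout label of either column. KO1 and KO2 therefore stand below for the columns labelled so, and every direction rests on those labels. All 6 markers of MDA-MB-231-like cells were above 1 CPM in each column. Of the genes taken as low in triple-negative cells, ESR1 had 0, 0 and 14 counts, in the order NC, KO1, KO2. PGR was at 0 in each, but ERBB2 was at 75.7, 28 and 52.4 CPM. Of 8 leukocyte markers only CD68 passed 1 CPM, and 5, 5 and 3 of them were at 0. The 6 fibroblast markers summed to 32.6, 50.5 and 39.5 CPM, with COL1A1 at 19.8, 49.8 and 36.3 CPM but PDGFRB at 10.8, 0.435 and 2.39 CPM and LUM at 1.25, 0.174 and 0.357 CPM. DCN was at 0 in each column. The 6 kidney and intestine markers summed to 0.5, 0.783 and 1.82 CPM. The part of other cell types in the results was not tested.

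CYP24A1 (ENSG00000019186, hg38 chromosome 20, 54153449 to 54173973, minus strand) was detected almost only in the control. NC held 488 counts, KO1 0 and KO2 6. That is 17.4 CPM (15.9 to 19) in NC and 0.214 CPM (0.0786 to 0.466) in KO2, while the exact interval of KO1 reaches 0.16 CPM and the floor of 3 counts set for a count of 0 is 0.13 CPM. The control interval lies far above both knockout columns. With KO1 set at that floor, which lies inside its interval, the level was 134-fold lower in KO1 than in NC. It was 81.4-fold lower (37.1 to 223) in KO2. Between the knockout columns, 6 counts against 0 is too few to set them apart. In bulk RNA, fewer cells expressing the gene and less RNA per cell cannot be told apart.

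**Figure D1:**
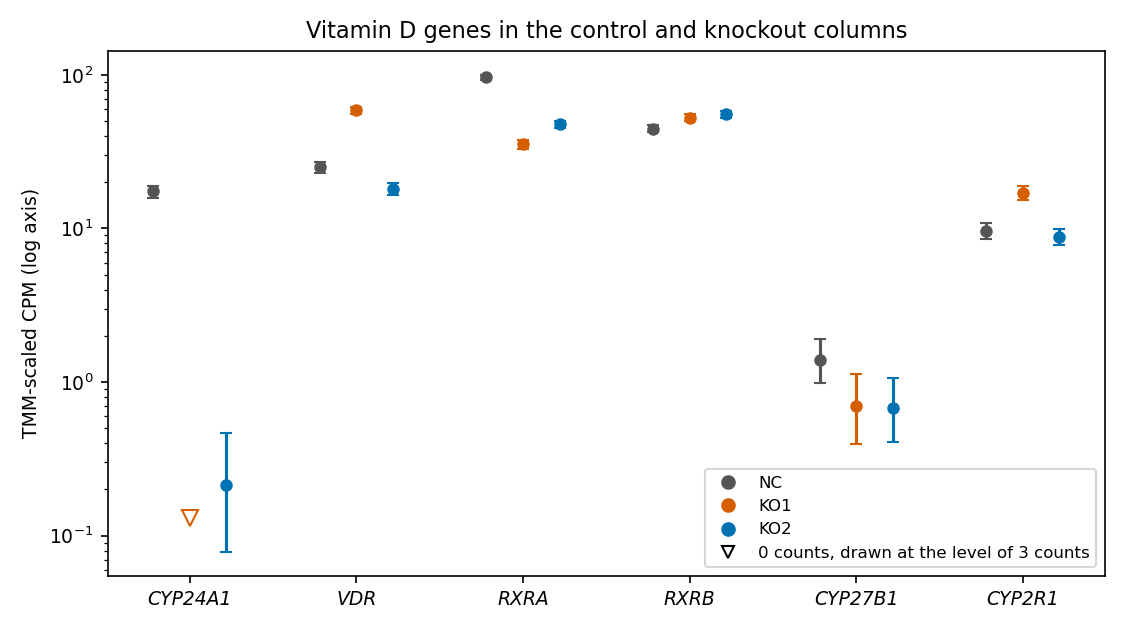
Level of each of the 6 vitamin D genes (TMM-scaled CPM, log axis) in the NC, KO1 and KO2 columns, 1 point per column with the exact 95% interval of the count. CYP24A1 is at 17.4 CPM in NC, 0 counts in KO1 (open triangle, drawn at the level of 3 counts) and 0.214 CPM in KO2, RXRA is lower in both knockout columns, and VDR is highest in KO1.

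In the control, the CYP24A1 counts were spread over 6 annotated transcripts. CYP24A1-201, the full-length coding form, had 192 counts, CYP24A1-203 had 182, and the short noncoding CYP24A1-204 had 104. The 6 counts of KO2 were all assigned to CYP24A1-201. Per length, CYP24A1-204 was the highest of them at 8.5 TPM (the authors' length-scaled unit) in NC, against 3.35 for CYP24A1-201 and 4.67 for CYP24A1-203. CYP24A1-203 lacks 1 coding exon of 198 bases (chr20:54157388-54157585, minus strand), which is 66 codons, so the reading frame goes on across the junction. The exon encodes the P450 loop whose conserved cysteine holds the haem iron. Both versions are shown because CYP24A1-203 held 48.7% of the counts of this pair in NC. The sequences are those of GENCODE release 29, 5′ to 3′ in transcript direction, with the skipped exon in capitals and 24 bases of the exons on either side.
CYP24A1-201: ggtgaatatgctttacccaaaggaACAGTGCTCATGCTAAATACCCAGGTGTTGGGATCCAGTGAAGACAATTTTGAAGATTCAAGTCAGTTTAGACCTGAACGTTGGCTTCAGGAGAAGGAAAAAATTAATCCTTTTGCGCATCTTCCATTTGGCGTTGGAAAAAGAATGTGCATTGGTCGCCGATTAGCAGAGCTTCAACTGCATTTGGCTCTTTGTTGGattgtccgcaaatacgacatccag
CYP24A1-203: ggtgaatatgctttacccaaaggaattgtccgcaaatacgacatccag

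VDR (ENSG00000111424, hg38 chromosome 12, 47841537 to 47943048, minus strand) encodes the receptor itself, and its level differed in opposite directions in KO1 and KO2. Its count was 699 in NC, 1353 in KO1 and 507 in KO2. On the CPM scale it was at 25 (23.1 to 26.9), 58.8 (55.7 to 62) and 18.1 (16.6 to 19.7) CPM in that order, and none of these intervals overlap. VDR was 2.36-fold higher (2.15 to 2.58) in KO1 than in NC and 1.38-fold lower (1.23 to 1.55) in KO2. KO2 was 3.25-fold lower (2.93 to 3.61) than KO1. On the deposited TPM values the KO1 difference was smaller, with a log2 fold of 0.85 against 1.23 by counts.

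The VDR counts of NC and KO2 were assigned almost wholly to one transcript and those of KO1 to another. VDR-206 had 682, 0 and 498 counts in NC, KO1 and KO2, whereas VDR-201 had 0, 1321 and 0. Both transcripts share the same coding sequence of 1284 bases, or 427 codons before the stop. VDR-201 has an additional exon of 122 bases upstream of the coding start (chr12:47899837-47899958). The next transcript, VDR-203, had 14, 20 and 4 counts. Reads from the shared sequence cannot be told apart between VDR-201 and VDR-206, and how the authors' software divided them is not given in the sources used here.

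RXRA (ENSG00000186350, hg38 chromosome 9, 134317098 to 134440585, plus strand), the partner receptor with the most counts in the control, was lower in both knockout columns. Its counts were 2705, 812 and 1334 in NC, KO1 and KO2, or 96.6 CPM (93 to 100.3), 35.3 CPM (32.9 to 37.8) and 47.6 CPM (45.1 to 50.3). The control lies above both others with no overlap. RXRA was 2.74-fold lower (2.53 to 2.96) in KO1 and 2.03-fold lower (1.9 to 2.17) in KO2. Nearly all of the count fell on RXRA-201 (2635, 762 and 1287 counts), a transcript of 5770 bases that the annotation types as processed. The coding RXRA-202, of 1846 bases, had 66, 48 and 42 counts. Reads from any sequence that both hold cannot be told apart, so this assignment does not show how much RXRA RNA is coding.

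RXRB (ENSG00000204231, hg38 chromosome 6, 33193588 to 33200688, minus strand), the second partner receptor, was the steadiest of the 6 genes by counts. Its counts were 1252, 1211 and 1546 in the same order, or 44.7 CPM (42.3 to 47.3), 52.6 CPM (49.7 to 55.7) and 55.2 CPM (52.5 to 58). KO1 and KO2 overlap, and NC lies just below them. RXRB was 1.18-fold higher (1.09 to 1.28) in KO1 and 1.23-fold higher (1.14 to 1.33) in KO2, but the KO1 direction turned on the TPM scale, to a log2 fold of -0.17 against 0.24 by counts. A neighbour on the other strand, the zinc transporter gene SLC39A7, overlaps RXRB by 244 bases and had 2976, 1959 and 4297 counts. Whether the counting used strand is not given in the sources used here, so reads there cannot be told apart.

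The balance between the partners differed as well. The ratio of RXRA to RXRB counts after scaling was 2.161 in NC, 0.671 in KO1 and 0.863 in KO2. Per length the ratio of TPM values was 0.85, 0.29 and 0.35, so RXRB was the higher of them in every column on that scale. The summed TPM of RXRA and RXRB was 61.1 in NC, 37.8 in KO1 and 56.6 in KO2. The deposited TPM carries no TMM scaling and weighs the genes by length, so this sum can differ from one by CPM. By CPM, RXRA was at 96.6, 35.3 and 47.6 and RXRB at 44.7, 52.6 and 55.2 in NC, KO1 and KO2. RXRG, the third partner gene, had 0, 2 and 0 counts.

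Within RXRB, the share of the main coding forms also differed between columns. RXRB-202 had 797, 967 and 809 counts in NC, KO1 and KO2, and RXRB-201 had 191, 70 and 448. RXRB-201 thus made up 19.3% of the pair in NC, 6.75% in KO1 and 35.6% in KO2, lowest in one knockout column and highest in the other. RXRB-202 carries 12 coding bases, or 4 codons, that RXRB-201 lacks (chr6:33195455-33195466, minus strand), and their 5′ ends also differ. The splice junction is printed because these bases set the pair apart, with the added bases in capitals, from GENCODE release 29.
RXRB-202: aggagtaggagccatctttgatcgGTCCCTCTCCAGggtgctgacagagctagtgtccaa
RXRB-201: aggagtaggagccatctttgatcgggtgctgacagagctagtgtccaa

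CYP27B1 (ENSG00000111012, hg38 chromosome 12, 57762334 to 57768986, minus strand), the enzyme that makes calcitriol, was near the limit of detection. The columns NC, KO1 and KO2 held 39, 16 and 19 counts, or 1.39 CPM (0.991 to 1.9), 0.696 CPM (0.398 to 1.13) and 0.678 CPM (0.408 to 1.06). These intervals overlap, whereas the counting intervals of both folds against NC leave out equality. The level was 2-fold lower (1.09 to 3.84) in KO1 and 2.05-fold lower (1.16 to 3.76) in KO2. Its mean over the columns was 0.922 CPM, and it was the only one of the 6 genes under the 1 CPM minimum set for a measured gene. It shares 516 bases on the same strand with METTL1, a tRNA methyltransferase gene with 330, 343 and 228 counts, and reads in that stretch cannot be told apart.

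CYP2R1 (ENSG00000186104, hg38 chromosome 11, 14877440 to 14892252, minus strand), the first hydroxylase, was higher in KO1 than in both other columns. The columns held 269, 391 and 247 counts, or 9.61 CPM (8.49 to 10.8), 17 CPM (15.4 to 18.8) and 8.82 CPM (7.75 to 9.99). NC and KO2 overlap and KO1 lies above them. CYP2R1 was 1.77-fold higher (1.51 to 2.07) in KO1 and 1.09-fold lower (0.913 to 1.3) in KO2. On the TPM scale the KO1 difference shrank to a log2 fold of 0.20, against 0.82 by counts.

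The CYP2R1 transcripts divided by where they start, and that division differed between columns. The 5 transcripts with the inner first exon held 82.5%, 68.8% and 21.1% of the gene's counts in NC, KO1 and KO2. CYP2R1-201, the only one with the outer first exon, held 2.97%, 6.65% and 34.4%. The other 4 transcripts start inside the gene and held 14.5%, 24.6% and 44.5%. The leading transcript was CYP2R1-206 in NC and KO1 (189 and 180 counts, 0 in KO2), which the annotation types as a target of nonsense-mediated decay, the pathway that degrades RNA with early stop codons. In KO2 the leading transcript was CYP2R1-201 with 85 counts. Transcripts of the decay type held 70.3%, 82.4% and 39.7% of the counts. Reads from sequence that these transcripts share cannot be told apart. The division by start therefore rests on how the authors' software assigned them, and start use was not measured.

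The bases before both starts are shown because the assigned counts of KO2 stand apart by annotated start. Neither start use nor any signal at these promoters was measured. They come from the RefSeq promoter table (GRCh38.p14), on the minus strand, with CG pairs in capitals: 250 bases before the inner start (chr11:14891672-14891921) and 229 before the outer one (chr11:14892253-14892481). The inner window has 23 CG pairs and 69.6% GC, and the outer one 13 pairs and 61.1% GC. Over all 35116 promoter windows of that table the median was 11 CG pairs and 58.0% GC in 250 bases.
CYP2R1 inner start: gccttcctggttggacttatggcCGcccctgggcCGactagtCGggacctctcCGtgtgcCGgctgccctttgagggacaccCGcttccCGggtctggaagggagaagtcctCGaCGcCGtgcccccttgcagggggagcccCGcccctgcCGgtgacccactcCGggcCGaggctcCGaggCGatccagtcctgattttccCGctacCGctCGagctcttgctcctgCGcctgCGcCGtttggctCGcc
CYP2R1 outer start: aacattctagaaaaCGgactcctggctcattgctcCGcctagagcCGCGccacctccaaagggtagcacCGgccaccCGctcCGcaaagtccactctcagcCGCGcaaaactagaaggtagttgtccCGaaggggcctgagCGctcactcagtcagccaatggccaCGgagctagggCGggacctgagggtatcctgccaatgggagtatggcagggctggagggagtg
The receptor half-site AGGTCA, searched on both strands over 250 bases before to 50 after each start, was in 0 of the 7 windows of RXRA, RXRB and CYP2R1 and in 13.8% of all windows. This says only that these letters are not in these windows. CYP24A1, VDR and CYP27B1 had no entry in the table.

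**Figure D2:**
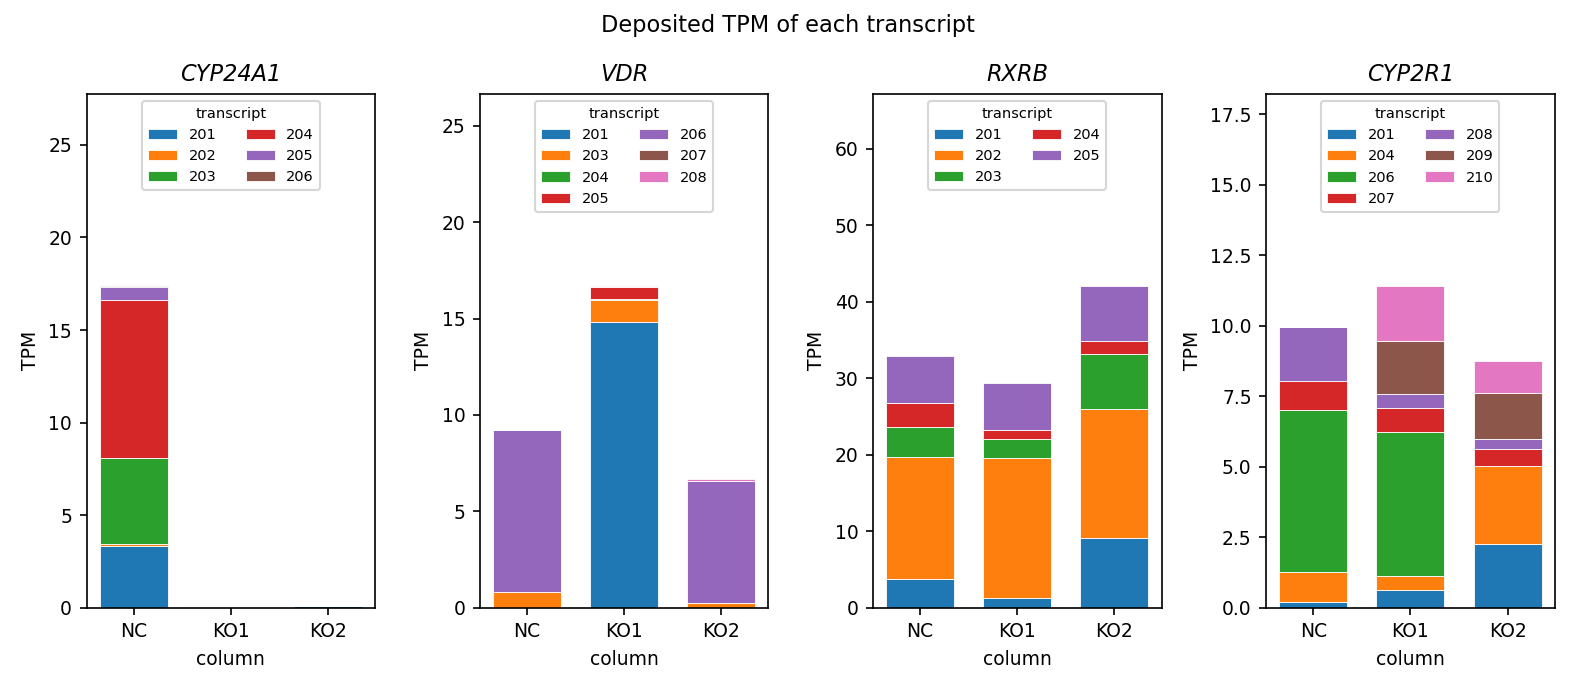
Deposited TPM of each annotated transcript of CYP24A1, VDR, RXRB and CYP2R1, stacked by column, 1 bar per column. Colours name different transcripts in each panel and the vertical scales differ. VDR is assigned to VDR-206 in NC and KO2 and to VDR-201 in KO1, and CYP2R1-206 stands at 5.73, 5.10 and 0 TPM.

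Set against all measured genes, the 6 were read by a size rule in place of a test, since 1 column per group allows none. A gene passed when its log2 fold was at least 1 in either direction, its counting interval excluded equality, and its mean was at least 1 CPM. Against NC, 3 of the 6 passed in KO1 (CYP24A1 and RXRA lower, VDR higher), where 32.8% of 14524 measured genes passed (15.4% higher and 17.4% lower). In KO2, 2 of the 6 passed (CYP24A1 and RXRA, both lower), where 21% of genes passed (11% higher and 9.98% lower). Between KO2 and KO1 only VDR passed, being lower in KO2, against 26.1% of genes (14.9% higher and 11.2% lower in KO2). CYP24A1 and RXRA were lower in both knockout columns, as were 5.65% of all measured genes. RXRA in KO2 lay just inside the threshold at a log2 fold of -1.02, and outside it at -0.98 with scaling by library size alone and at -0.94 on the TPM scale. CYP2R1 (0.82 in KO1) lay just outside. CYP27B1 (-0.93 and -0.96) could not pass at its mean level, and its log2 folds were -1.61 and -1.27 on the TPM scale. With mitochondrial genes left out of the scaling, CYP24A1, VDR and RXRA passed in KO1 and CYP24A1 and RXRA in KO2, as before. The median log2 fold of all measured genes was -0.01 in KO1 and near 0 in KO2.

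Per length, RXRB was the highest of the 6 in every column, at 32.97, 29.35 and 42.01 TPM. In NC the order went on with RXRA (28.12), CYP24A1 (17.36), CYP2R1 (9.95), VDR (9.24) and CYP27B1 (1.01). In KO1 VDR was second (16.67), then CYP2R1 (11.4), RXRA (8.46), CYP27B1 (0.33) and CYP24A1, listed at 0. In KO2 RXRA was second (14.64), then CYP2R1 (8.77), VDR (6.66), CYP27B1 (0.42) and CYP24A1 (0.11). With no replicate spread, neighbours in these orders cannot be called different.

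The pattern of CYP24A1 had several close matches among the measured genes. Likeness was the Euclidean distance between log2 CPM values (prior count 2) over the 3 columns. The nearest were AKR1C2 (distance 0.897), S1PR5 (0.939), CD33 (1.071), DUXAP8 (1.427), PI16 (1.578), SLCO2B1 (1.607), LINC01234 (1.634) and ADORA2A (1.774). AKR1C2, an aldo-keto reductase that acts on steroids, was at 17.2 CPM in NC, 0 counts in KO1 and 0.464 CPM in KO2. AKR1C2 and the pseudogene DUXAP8 have close copies in the genome, so their counts are uncertain. CD33, a sialic acid binding lectin, had 360, 0 and 2 counts. When both knockout columns were taken as 1 group against NC, CD33 fell by edgeR's quasi-likelihood test (adjusted p = 0.0375, lower in both columns). It was the only one of the 8 called, and since all 8 were picked on these columns, the call says nothing of the pattern. That test leaves 1 residual degree of freedom, assumes that the lone NC column varies like the knockout columns, and called 27 of 18289 genes (0.148%), 10 higher (0.0547%) and 17 lower (0.093%). The balance turned with DESeq2, at 190 higher and 111 lower, and without the filter on low counts, at 257 and 236. An unadjusted p under 0.05 was given to 1409 genes.

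The genes around the vitamin D genes were read in the same way. CYP24A1 has few measured neighbours within 1 Mb, and none was lower in both knockout columns, against 5.65% of all measured genes. The zinc finger gene ZNF217, on its left, was at 82.3, 96.9 and 65.7 CPM, and the prefoldin subunit gene PFDN4, on its right, at 47.3, 54.4 and 27.2 CPM. The pseudogene RPL12P4 was the only one of 3 past the rule, lower in KO2, as were 9.98% of all measured genes. So few neighbours cannot show whether CYP24A1 differs from its surroundings. Over the 381 measured genes of chromosome 20 the median log2 fold was -0.42 in KO1 and -0.44 in KO2.

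Around RXRA, every neighbour past the rule against NC was lower. Of 17 measured genes within 1 Mb, 7 were lower in KO1, 6 in KO2 and 4 in both, against 17.4%, 9.98% and 5.65% of all measured genes, and 0 were higher, with median log2 folds of -0.57 and -0.56. Those lower in both were RPL7A, SLC2A6, SARDH and VAV2. The nearest were WDR5, a subunit of histone methyltransferase complexes, at 173, 122 and 94.3 CPM, and the collagen gene COL5A1 at 469, 197 and 351 CPM. The chromosome 9 median over 568 genes was -0.26 and -0.23.

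Of the 21 neighbours of VDR, 5 were higher in both knockout columns and 0 lower in both, against 6.22% and 5.65% of all measured genes. Their medians were 0.33 in KO1 and 0.60 in KO2, and those of the 757 measured genes of chromosome 12 were -0.03 and 0. The 5 were AMIGO2, RAPGEF3, ZNF641, RND1 and the unnamed ENSG00000276390. The nearest, the histone deacetylase gene HDAC7 (67.8, 80.7 and 87.7 CPM) and TMEM106C (50.1, 64.3 and 71.3 CPM), passed in neither column. RXRB lies in the major histocompatibility region, and 7 of its 35 neighbours were higher in both, against 6.22% of all measured genes. They were HLA-DRA, HLA-DRB1, HLA-DMB, HLA-DMA, HLA-DPA1, HLA-DPB1 and LEMD2. All but LEMD2 are class II genes of the same family, so the count is not one of unrelated genes. The neighbours' medians were 0.30 and 0.36, and those of the 729 measured genes of chromosome 6 were 0.27 and 0.27. HLA-DPB1, the nearest on the left, was at 0.214, 9.04 and 15.2 CPM, and HSD17B8, on the right, at 6.71, 4.13 and 2.82 CPM. CYP27B1 had 31 neighbours, 2 of them (NXPH4 and B4GALNT1) lower in both, against 5.65% of all measured genes. In KO1, 4 were higher and 4 lower, against 15.4% and 17.4% of all measured genes. In KO2, 0 were higher and 5 lower, against 11% and 9.98%. The overlapping METTL1 (11.8, 14.9 and 8.14 CPM) and the nearest genes without overlap, MARCHF9 (6.04, 5.96 and 11 CPM) and EEF1AKMT3 (2.71, 4.13 and 3.96 CPM), passed in neither. CYP2R1 had 5 neighbours, 0 of them past the rule against NC, where 32.8% of all measured genes passed in KO1 and 21% in KO2. The nearest was the phosphodiesterase gene PDE3B (1.64, 1.39 and 1.64 CPM).

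**Figure D3:**
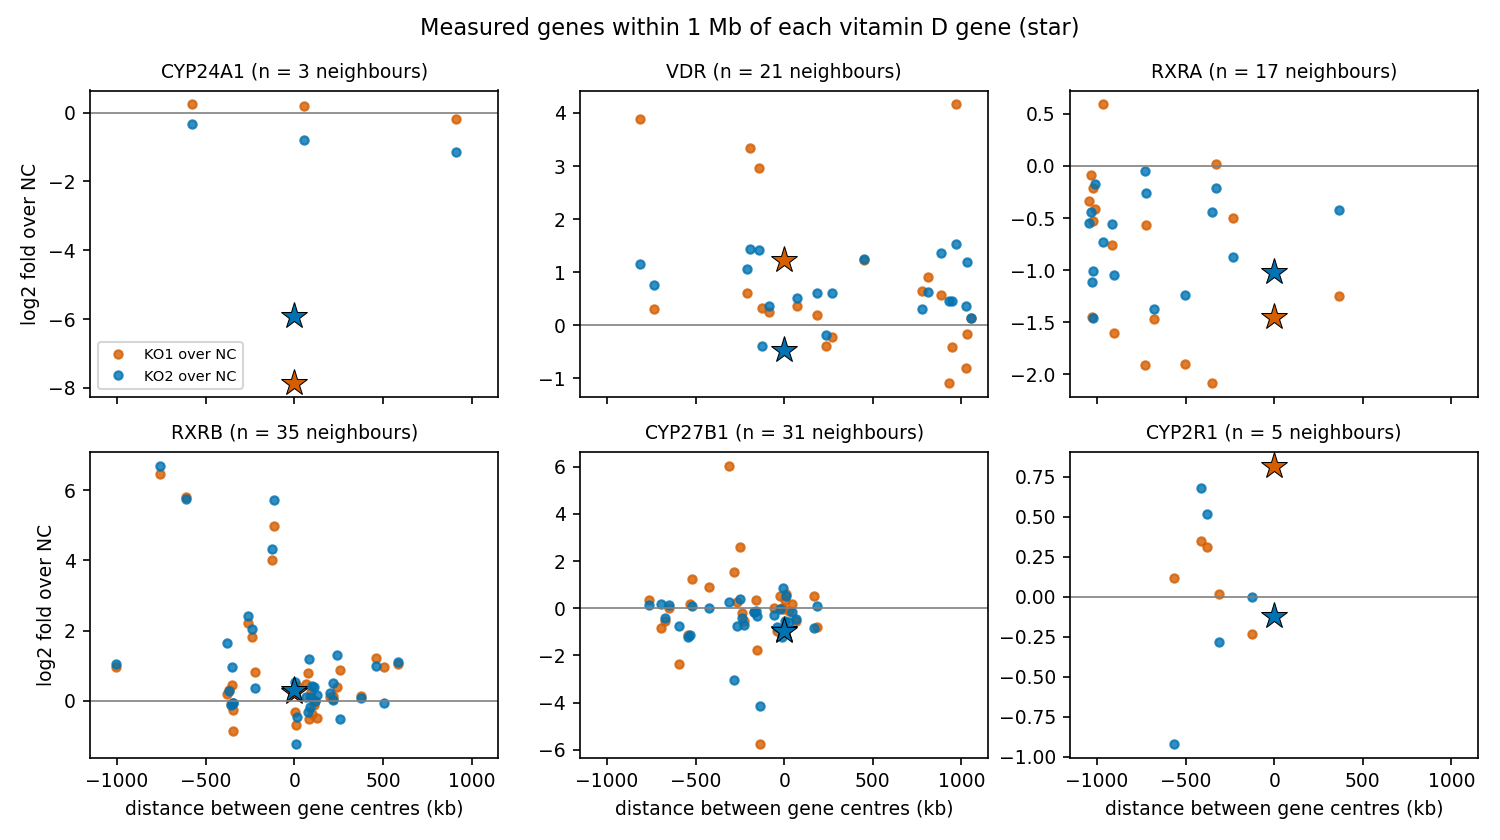
log2 fold over NC of each measured gene within 1 Mb of the 6 vitamin D genes (stars), against the distance between gene centres in kb, with KO1 and KO2 in different colours and a vertical scale for each panel. CYP24A1 lies far below its 3 neighbours, whereas RXRA lies among 17 neighbours with medians of -0.57 and -0.56.

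Lists of related genes were chosen by role, not by direction, though with earlier results of these data known. They hold 116 different genes, of which 77 were measured. Of the measured ones, 40.3% passed the size rule in KO1, 22.1% in KO2 and 13% in the same direction in both, against 32.8%, 21% and 11.9% of all measured genes. The edgeR and DESeq2 fits rest on a lone NC column, so the differences below are values and not calls.

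Among 21 genes of vitamin D supply, activation and clearance, 12 were measured. Of these, 3 were lower in KO1 and 2 in KO2, against 17.4% and 9.98% of all measured genes. The list medians were -0.03 and -0.23. DAB2, an adaptor of endocytic receptors, was the only one lower in both (72.7, 34.1 and 23.5 CPM). CYP27A1, a mitochondrial 25-hydroxylase, was at 13.8, 6.09 and 11.6 CPM, and FDXR, the reductase at the head of electron transfer to the mitochondrial P450s, at 15.9, 6 and 12.9 CPM. PDIA3 (309, 413 and 414 CPM) and the sterol reductase gene DHCR7 (148, 78.8 and 128 CPM) passed in neither. GC, the serum carrier, was at 0 counts in each column.

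Among other receptors that pair with RXR, 12 were measured. Of these, 6 were lower in KO1 and 2 in KO2, against 17.4% and 9.98% of all measured genes. The list medians were -0.81 and -0.17. The retinoic acid receptor genes RARB (11.6, 0.0869 and 0.821 CPM) and RARA (60.9, 28 and 28.7 CPM) were lower in both. The thyroid hormone receptor gene THRA was at 40, 1.26 and 23.3 CPM. PPARD (58.2, 98.7 and 82.5 CPM) and NR1H2 (97.1, 125 and 85 CPM) passed in neither, and NR4A2 was higher in KO2 (5.07, 4.65 and 22.7 CPM).

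Of the 18 measured coregulators of VDR, 3 were lower in KO1 and 1 was lower and 1 higher in KO2. Of all measured genes, 17.4% were lower in KO1, and 9.98% were lower and 11% higher in KO2. The arginine methyltransferase gene CARM1 was lower in both, at 110.3, 53 and 55.1 CPM. It lay at the threshold in KO2 (2-fold lower, 1.88 to 2.13), and with scaling by library size alone 0 coregulators passed in both. The coactivator gene NCOA1 was at 9.64, 9.65 and 44 CPM and the acetyltransferase gene KAT2B at 19.8, 2.61 and 16.9 CPM. BAZ1B (117, 211 and 202 CPM) passed in neither.

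Genes known to be induced by vitamin D lay on both sides of the control. Of 21 measured, KO1 had 8 above and 4 below, while KO2 had 2 above and 3 below, with medians of 0.16 and -0.11. Of all measured genes, 15.4% were higher and 17.4% lower in KO1, and 11% and 9.98% in KO2. THBD, the thrombin receptor thrombomodulin (23.5, 93 and 86.6 CPM), and CST6, a cysteine protease inhibitor (0.464, 19.1 and 13.4 CPM), were higher in both, as were 6.22% of all measured genes, and 0 were lower in both. CST6 had an adjusted p of 0.0816 by edgeR. Others stood high in KO1 alone. G0S2, an inhibitor of fat breakdown, was at 177, 1777 and 116 CPM, GADD45A, a growth arrest gene, at 59, 499.9 and 40.7 CPM, and TXNIP at 249, 1093 and 105 CPM. TXNIP was also lower in KO2, as were DUSP10 and BGLAP (log2 folds of -1.25, -1.68 and -1.42). Below NC in KO1 were CD14, LRP5, HILPDA and CLMN, with log2 folds of -2.1, -1.64, -2.34 and -1.39. FBP1 (29, 45.3 and 41.4 CPM) and SERPINB1 (73.3, 137 and 113 CPM) passed in neither.

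Of the 4 measured genes known as repressed by vitamin D, 3 were higher in KO1 (CSF2, PTHLH and MYC) and 1 in KO2 (CSF2). Of all measured genes, 15.4% were higher in KO1 and 11% in KO2. CSF2, the cytokine GM-CSF, was at 14.2, 79.5 and 66.9 CPM, and RELB at 33.9, 52.3 and 41.7 CPM passed in neither. Of the 3 measured mitochondrial P450 relatives of CYP24A1, 2 were lower in KO1 and 2 in KO2, against 17.4% and 9.98% of all measured genes. CYP27C1 was lower in both (2.29, 0.174 and 0.893 CPM), as were 5.65% of all measured genes. CYP27A1 was lower in KO1 alone (13.8, 6.09 and 11.6 CPM). CYP11A1, the cholesterol side-chain enzyme, was lower in KO2 alone (3, 3.13 and 0.785 CPM). Of 10 measured P450 enzymes of other families, CYP4V2 (8, 57 and 27.2 CPM) and CYP4X1 (0, 0.783 and 2.86 CPM) were higher in both. So were 6.22% of all measured genes. CYP4X1 reached the minimum mean of 1 CPM only through KO2, where it is highest. CYP2J2, at 0, 0.739 and 2.18 CPM, fell under that minimum with a mean of 0.972 CPM. CYP1B1 (140.1, 219 and 139 CPM) and CYP51A1 (79.3, 95.8 and 132 CPM) passed in neither.

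**Figure D4:**
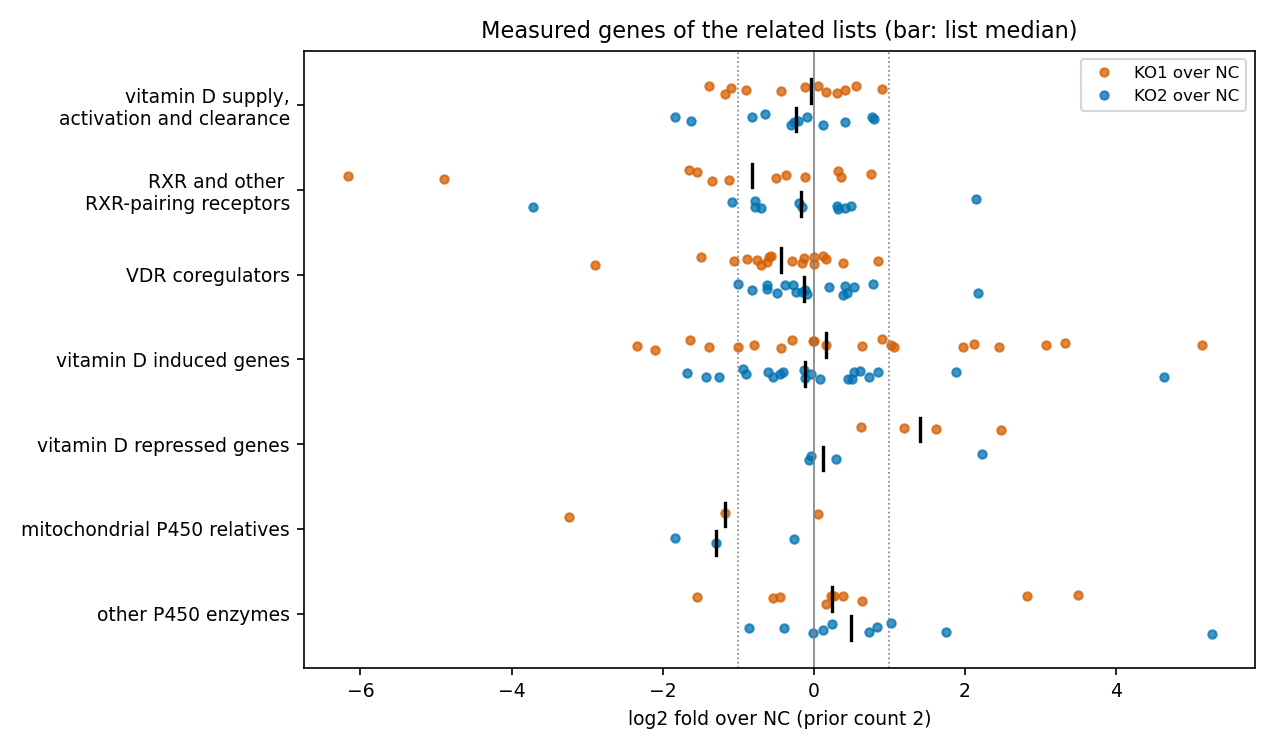
log2 fold over NC of the measured genes of 7 related lists, 1 point per gene, with KO1 above KO2 in each list, the list median as a bar and dotted lines at the size threshold. The induced genes spread to both sides (medians 0.16 and -0.11), and the RXR-pairing receptors reach lowest in KO1, with RARB and THRA farthest left.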

How the data were processed

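The authors' deposited table gives, per the file headers, estimated counts, TPM and FPKM for 199167 transcripts. The counts appear to be expected counts rounded up: 98.22% (NC), 98.36% (KO1) and 98.21% (KO2) of small counts lay 0 to 1 above the deposited FPKM's implied count (tolerance 0.05). The submitters' processing notes name CASAVA, Bowtie2, featureCounts and hg38; the tool that estimated transcripts is not given in the sources used here. RNA was extracted with Trizol and libraries were stranded total RNA, per the labels. Columns were matched to groups by name, with 0 left over. Whether a column is 1 library or 2 combined is not given in the sources used here.

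Counts were summed per gene and scaled by TMM (edgeR 4.0.16, R 4.3.3). Folds use a prior count of 2, exact 95% Clopper-Pearson intervals and a floor of 3 counts per column with 0. These cover counting error only, since reads without molecular tags can be copies of 1 molecule. The only test joined both knockout columns against NC (edgeR quasi-likelihood, robust, filterByExpr, Benjamini-Hochberg adjusted p under 0.05), with DESeq2 1.42.0 as an alternative. It was tested on simulated data. The genes and lists were chosen with earlier results of these data known. Named were the 6 genes and ARID1A, per list up to 3 genes per direction with the largest mean log2 fold past the size rule in both knockout columns and 2 with the highest mean passing in neither, the nearest measured neighbours, and the 8 genes closest to CYP24A1 in pattern. Other list genes and neighbours were named after their values were seen. One gene that this rule names is not reported here.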

Additional observations from a re-analysis of the deposited data

Results flagged for a closer look

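VDR stood above the control in KO1 and below it in KO2, with log2 folds of 1.23 and -0.46 and a difference of -1.70 between KO2 and KO1. NR1H2, the liver X receptor beta gene, showed a smaller opposition by counts, with log2 folds of 0.36 and -0.19 and a difference of -0.55. On the deposited TPM scale the opposition of NR1H2 was absent, at 90.64, 84.14 and 84.8 TPM in NC, KO1 and KO2. With 1 column per group, neither difference was tested.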

How the results depend on the processing

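The log2 folds of the 6 genes kept their direction under each alternative, except RXRB in KO1 (-0.17 to 0.24) and CYP27B1 between KO2 and KO1 (-0.12 to 0.35). Scaling by library size alone moved the median of all genes to -0.24 in KO1 and 0.30 between KO2 and KO1, and the share of higher calls from 46.9% to 33.3% and from 57.1% to 74.8%. It left 1 of the 6 genes past the size rule in KO2 (2 otherwise), 2 between KO2 and KO1 (1 otherwise) and 0 coregulators in both columns (1 otherwise). Without mitochondrial genes in the scaling, 2 supply genes passed in both (1 otherwise). Without the filter on low values, 5164 genes passed in KO2 (3048 with it), 5702 between KO2 and KO1 (3788 with it), 3 supply genes and 4 other P450 enzymes (2 with it). With a mean of at least 5 CPM, 1915 passed in KO2, 1 RXR-pairing receptor (2 otherwise), 0 mitochondrial relatives (1 otherwise), 1 other P450 enzyme and 2 VDR neighbours (5 otherwise). edgeR's 27 calls became 301 with DESeq2, 15 with DESeq2 size factors, 493 without the filter, 15 without mitochondrial genes and 48 without robust dispersion, the last chosen after seeing the data. The cause was not tested. The deposited TPM gives no fold for CYP24A1 against a column at 0. No paired analysis was possible because the columns carry no replicate numbers, and leaving out replicates was not run for the same reason. Depth limits CYP27B1, with 39, 16 and 19 counts, and CYP24A1 in the knockout columns.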
